A study of Mus musculus with 24 samples.

Results

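10 genes were followed on 24 arrays of mouse pancreas. They were Cirbp, Rbm3, Klf9, Klf13, Coq10b, Tfrc, Cdkn1a, Usp2, Tsc22d3 and Fkbp5, which are known as rhythmic, hormone-responsive or cold-inducible genes that can follow the circadian clock. Members were taken by symbol from the platform annotation, which gave them 24 of the 45281 probes. Several of the 10 were chosen by measured values, namely signals that followed those of clock genes over these same arrays, so their relation to the clock gene Dbp is given as a description with no test. A probe entered the tests when its detection p, the share of negative control probes that were at least as bright, was under 0.05 on at least 4 arrays. This kept 17 member probes of 9 genes, among 15328 kept probes of the whole array, and both Rbm3 probes were left out.

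All arrays came from male C57BL/6J mice, bought at 3 weeks of age, housed singly at 23 degrees Celsius under a reversed cycle with 12 h of light, and fed a diet of 60% fat, for 12 weeks per the design. AFFB mice drank an alcohol-free fermented blackberry and blueberry beverage. Its dose, like those of the extract, is stated in the protocol as mg per kg of body weight a day, on a scale set by the ANC of the beverage, an abbreviation that the labels do not spell out and that is read here as anthocyanins. It was 8.4 for AFFB. PAE mice drank phenolic compounds extracted from that beverage, at 1.1 (0.1X), 9.0 (1X) or 18.9 on the same scale (named 3X in titles but 2X by the protocol). Sitagliptin mice drank the dipeptidyl peptidase 4 inhibitor sitagliptin at 150 mg per litre, and water mice drank water, on the same diet. Each of the 6 groups had 4 arrays, out of 12 mice a treatment. The labels do not say that the arrays came from separate mice or how tissue was pooled, so every p-value reflects array-to-array spread, which may be technical. No label gives the time of day of tissue collection.

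The circadian clock is a transcriptional loop in which CLOCK and BMAL1 bind E-box sequences and drive their own repressors, and it runs in pancreatic acinar and islet cells as in most tissues. Its output factors, of which Dbp is one, bind D-box sequences in further genes. Some rhythmic genes take their timing from outside the cell instead: glucocorticoid receptor targets from the daily corticosterone rhythm, and cold-inducible RNA-binding protein genes and heat shock genes, in opposite phase, from the daily rhythm of body temperature.

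Promoters of the members were read from RefSeq, build GRCm38.p6, as windows of 300 bases, 250 before and 50 after an annotated start. Windows numbered 14, for 9 members. Only the windows of Coq10b and Fkbp5 are printed, because no other member window held an E-box or D-box match. Capitals mark an E-box, CACGTG, in both windows, and in Coq10b also, upstream of it, a D-box (TTATGTAA or TTACGTAA on either strand). The Coq10b window is chr1:55052520-55052819 on the plus strand and the Fkbp5 window is chr17:28486100-28486399 on the minus strand, each printed 5′ to 3′ along its gene.
Coq10b: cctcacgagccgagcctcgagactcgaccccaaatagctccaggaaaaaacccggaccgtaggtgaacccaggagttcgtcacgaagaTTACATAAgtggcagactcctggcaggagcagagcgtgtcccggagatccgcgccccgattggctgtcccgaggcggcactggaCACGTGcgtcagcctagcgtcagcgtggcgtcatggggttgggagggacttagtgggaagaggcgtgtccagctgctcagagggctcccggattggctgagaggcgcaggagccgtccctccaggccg
Fkbp5: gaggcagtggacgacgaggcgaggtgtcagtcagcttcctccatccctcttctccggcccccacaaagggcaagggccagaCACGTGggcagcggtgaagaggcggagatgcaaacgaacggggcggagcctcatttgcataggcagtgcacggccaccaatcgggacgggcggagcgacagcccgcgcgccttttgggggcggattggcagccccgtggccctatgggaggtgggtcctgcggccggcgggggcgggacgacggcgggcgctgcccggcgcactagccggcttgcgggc

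The first base of the E-box lay at position -78 from the annotated start in Coq10b and at -169 in Fkbp5, and the first base of the Coq10b D-box at -162. An E-box was held by 2 of the 14 member windows and by 7.15% of all 32851 windows. The D-box was held by 1 member window and by 1.06% of all windows. None of the 14 member windows matched the palindromic glucocorticoid element (0.475% of all windows), the cAMP element TGACGTCA (1.79%), the half-site AGGTCA of ROR and REV-ERB (16.3%) or the heat shock element of 3 inverted repeats (0.603%), on either strand. None matched the strict p53 response element, which 0.00913% of all windows held. Only 3 of all windows met that strict pattern, so its absence says little. A Cdkn1a window, chr17:29090729-29091028, holds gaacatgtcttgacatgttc, a near match that departs from the strict pattern at 1 base. These motif matches are descriptions of letters in a short window and say nothing of binding.

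The tissue labels were checked against markers. Acinar markers were measured for 9 of 10 genes, with a mean log2 signal of 13.96 to 14.18 on every array, and 6 of 9 islet markers, with a mean of 6.29 to 9.57. The acinar signals lie near the top of the quantile-normalized scale, so their narrow range says little about equal acinar content. Adipocyte markers Fabp4, Plin1, Cfd and Cidec were not kept, and 5 of 9 were. Between 24.05% and 31.05% of probes were detected on an array. A set of 3 arrays stood apart on the first principal component, which held 28.4% of the variance: PAE 1X replicate 2 at 56.1, AFFB replicate 2 at 38.8 and sitagliptin replicate 3 at 33.7, against -20.66 to 19.03 on the other 21 arrays. In bulk tissue, fewer cells of a type and less RNA per cell cannot be told apart.

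Dbp itself split the arrays. Its log2 signal was 11.43 on PAE 1X replicate 4, 11.12 and 11.03 on PAE 3X replicates 3 and 2, 10.98 on sitagliptin replicate 4 and 11.02 on water replicate 4. It was 5.63 to 8.41 on the other 19 arrays. The gap between the clusters was 2.57 log2 units, or 5.94-fold, and the next widest gap was 0.77. High-Dbp arrays thus occurred in 4 of the 6 groups and were absent from AFFB and PAE 0.1X. Because the arrays fall into separate clusters, no correlation with Dbp over all 24 arrays is reported for a member. Values on the 5 arrays of high Dbp are set beside those of the 19, and rank correlations are given over the 19.

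**Figure D1:**
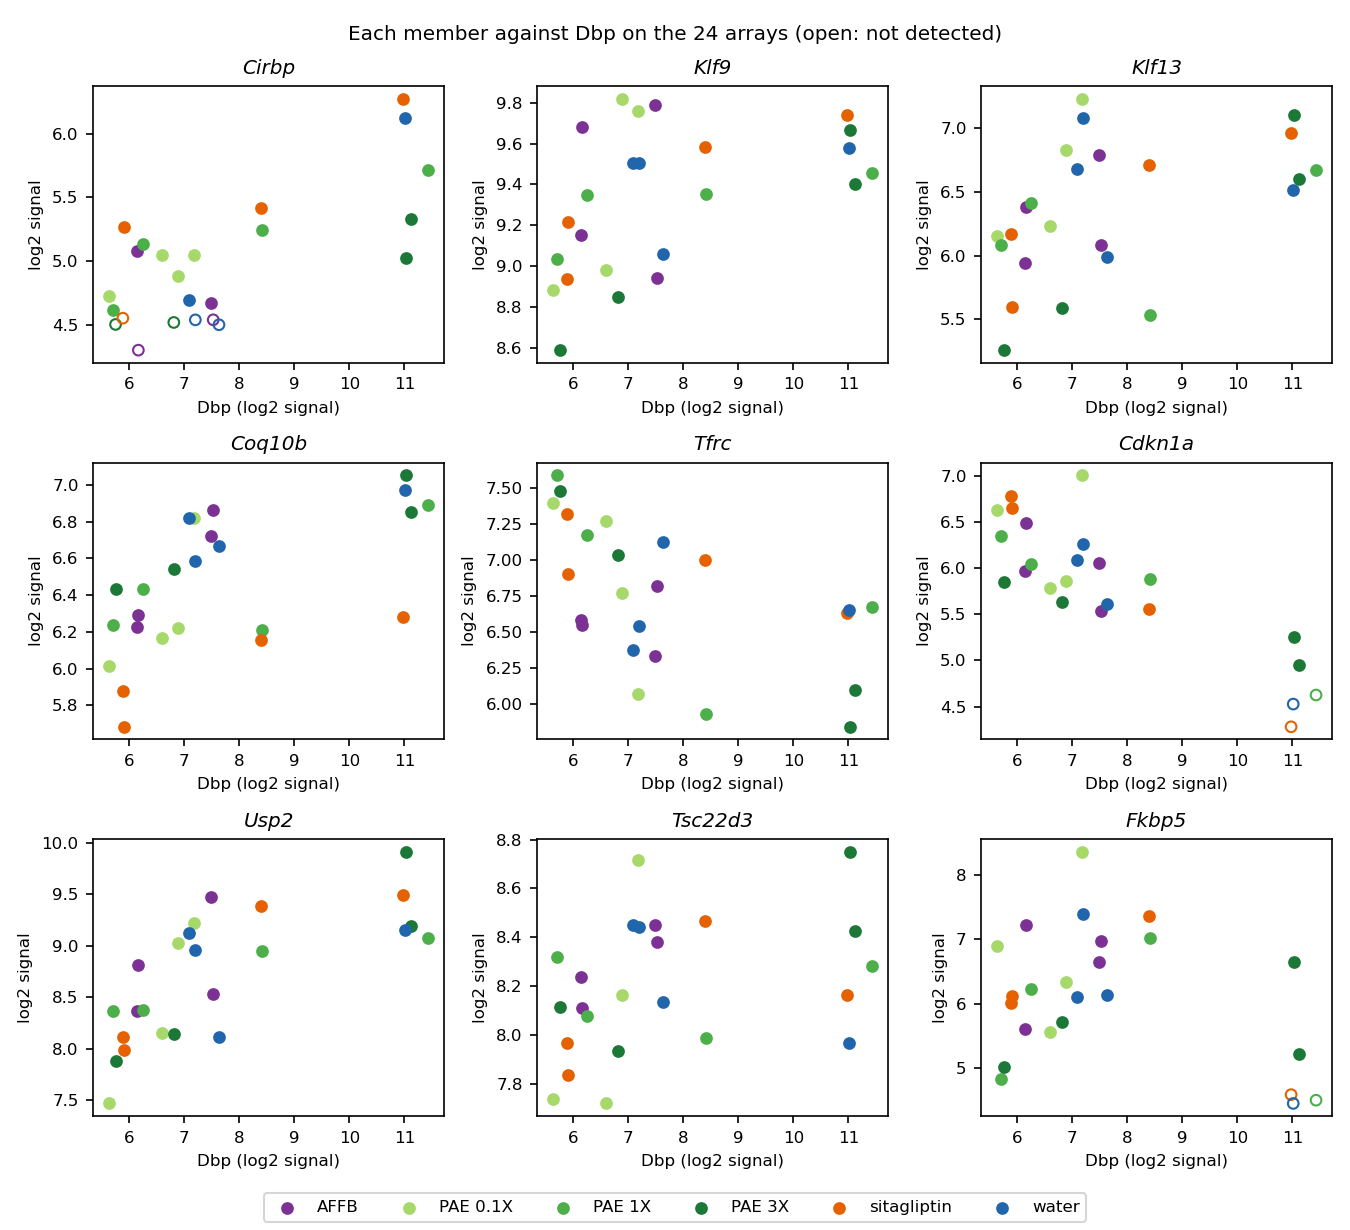
Each panel plots a member's log2 signal (vertical) against the log2 signal of Dbp (horizontal) on the 24 arrays, coloured by group, with open circles where the member was not detected. The 5 arrays on the right have Dbp at or above 10.98. Cdkn1a is lowest there, Cirbp reaches its highest values there, and Fkbp5 climbs with Dbp over the other 19 arrays while lying low on the right.

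The cold-inducible pair was Cirbp and Rbm3, RNA-binding proteins that are induced by mild cooling and, in mammalian tissues, follow the daily temperature rhythm. Cirbp had log2 signals of 5.72, 5.33, 5.03, 6.28 and 6.12 on the high-Dbp arrays of PAE 1X, PAE 3X (replicates 3 and 2), sitagliptin and water. It was 4.30 to 5.42 on the other 19. Of the 5, 3 lay above all 19, and each lay above the remaining arrays of its own group in 4 of 4 groups. Such counts within groups, here and below, are descriptions only, since their share over all kept probes was not computed. Over the 19 arrays Cirbp had a Spearman rho of 0.12 with Dbp, which became -0.20 without the 2 arrays farthest from the median of Dbp. Cirbp was close to background, being detected on 12 of the 19 arrays and 5 of the 5. Rbm3 was detected on 0 of 24 arrays by either probe, with smallest detection p values of 0.0812 and 0.116, so no level is given for it. Beside this, the mean of the islet markers had a rho of 0.65 with Cirbp over the 24 arrays and was 9.57 on water replicate 4, the highest of all arrays; its part in the Cirbp values was not tested.

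Cdkn1a, the p21 cell cycle inhibitor and a p53 target, went the other way. Its lead probe read 4.63, 4.95, 5.26, 4.28 and 4.53 on the high-Dbp arrays of PAE 1X, PAE 3X (replicates 3 and 2), sitagliptin and water, and 5.54 to 7.0 on the other 19. All 5 lay below all 19, and the probe was detected on 2 of the 5 and on all 19. Of the 17 member probes this was the only one whose ranges did not overlap in that direction, against 0.313% of all kept probes, and 0 of 17 did so above the 19, against 0.352%. Several members had been picked for this relation, so nothing is read from these shares. Both other Cdkn1a probes ran the same way, with 2 of the 5 arrays below all 19 each and rho of 0.80 and 0.79 with the lead probe over the 24 arrays. Over the 19 arrays the lead probe had a rho of -0.50 with Dbp, and the others -0.18 and -0.33.

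In a background list of heat shock genes, 2 of the 8 measured lay below all 19 arrays on these 5, as did 0.313% of all kept probes. Each gene is given by its brightest kept probe, and Hspa8 had 3 kept probes. Hspa8, the constitutive HSC70 chaperone, read 10.74 to 11.27 there and 11.62 to 12.64 on the other 19. Hsph1, the HSP105 chaperone, read 5.95 to 6.75 there and 6.90 to 9.58 on the other 19. Both genes are named after their values were seen, and the other 6 overlapped. The non-member most like Cdkn1a over the 24 arrays was Hspb1, the gene of a small heat shock protein, with a rho of 0.78. By Pearson's r it ranked 8. Hspb1 read 5.82 to 6.33 on the 5 high-Dbp arrays and 6.12 to 7.59 on the other 19. The part of those 5 arrays in that rho was not tested.

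Usp2 and Klf9 gave the tightest pair. Usp2, a deubiquitinase whose transcript cycles with the clock, read 9.08 on the high-Dbp array of PAE 1X, 9.19 and 9.91 on those of PAE 3X (replicates 3 and 2), 9.49 on that of sitagliptin and 9.16 on that of water. The other 19 arrays held 7.47 to 9.48. Of the 5, 2 lay above all 19, and in 4 of 4 groups they were above the remaining arrays of their own group. The lead Usp2 probe had a rho of 0.68 with Dbp over the 19 arrays, the highest of the members. Pearson's r was 0.69, or 0.63 without the 2 farthest arrays. The 2 dimmer Usp2 probes, detected on 8 and 6 of the 24 arrays, had a rho of 0.15 and 0.30 with Dbp over the 19.

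Klf9, a Kruppel-like transcription factor induced by glucocorticoids and the clock, read 9.40 to 9.74 on the 5 arrays and 8.59 to 9.82 on the other 19. It lay within the range of the 19 on each of the 5, and above the other arrays of its own group in 4 of 4 groups. Its rho with Dbp over the 19 was 0.49, and its rho with Usp2 was 0.85. Klf13, a related factor, read 6.51 to 7.10 on the 5 arrays and 5.26 to 7.23 on the 19, with a rho of 0.29 with Dbp and 0.72 with Klf9. Klf13 had a rho of -0.72 with the first principal component over the 24 arrays, whose part in its values was not tested.

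The glucocorticoid-linked members, Tsc22d3 and Fkbp5, differed from each other. Tsc22d3, which encodes the leucine zipper protein GILZ, read 7.97 to 8.75 on the 5 arrays and 7.72 to 8.72 on the 19, so the ranges overlapped almost fully. Its rho over the 19 was 0.49 with Dbp and 0.77 with Usp2. The dimmer kept Tsc22d3 probe had a rho of 0.11 with Dbp. Fkbp5, a co-chaperone of the glucocorticoid receptor, read 4.51 on the high-Dbp array of PAE 1X, 5.22 and 6.65 on those of PAE 3X (replicates 3 and 2), 4.59 on that of sitagliptin and 4.46 on that of water. On the 19 it read 4.83 to 8.36, with a rho of 0.58 with Dbp. Of the 5 arrays, 3 lay below all 19 and were not detected, although the relation over the 19 ran upward.

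Coq10b, a coenzyme Q binding protein of mitochondria, read 6.89 on the high-Dbp array of PAE 1X, 6.85 and 7.05 on those of PAE 3X (replicates 3 and 2), 6.28 on that of sitagliptin and 6.97 on that of water. On the 19 it read 5.68 to 6.87. It was above the other arrays of its own group in 4 of 4 groups and had a rho of 0.43 with Dbp over the 19. Its second kept probe had a rho of 0.08 with Dbp over the 19, of 0.56 with the lead probe and of -0.95 with the first principal component over the 24 arrays. That probe read 4.28, 4.69 and 4.39 on the 3 arrays far out on the component, and was detected on none of them. The lead probe had a rho of -0.52 with that component.

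Tfrc, the transferrin receptor that takes up iron, ran opposite to Dbp. It read 5.84 to 6.68 on the 5 arrays and 5.93 to 7.59 on the 19, with 1 of the 5 below all 19. Over the 19 its rho was -0.64 with Dbp, -0.75 with Usp2, -0.74 with Klf9 and -0.62 with Fkbp5. Both Tfrc probes had a rho of 0.83 with each other, and the second probe had -0.47 with Dbp over the 19.

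Over the 19 arrays, 7 of the 9 measured members had a rho above 0 with Dbp, and so did 12 of the 17 kept probes. These correlations share arrays and normalization and carry no p. Several members were picked for following clock genes, and the share of all kept probes with a rho above 0 was not computed. Neither count is therefore read as a result. Against the other arrays of their groups, high-Dbp arrays were higher in 4 of 4 groups for Cirbp, Usp2, Klf9 and Coq10b. They were higher in 3 groups for Klf13 and 1 for Tsc22d3. They were lower in 4 groups for Cdkn1a, 3 for Fkbp5, 2 for Tfrc and 1 for Tsc22d3. The share of all kept probes with such patterns was not computed, so nothing is read from these counts.

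List means for markers of other cell types also moved with most members, and their part in the values above was not tested. Measured were 5 of 9 adipocyte, 5 of 7 macrophage, 6 of 12 erythroid, 3 of 5 endothelial and 3 of 6 stellate genes. The adipocyte genes were dim, with mean log2 signals of 4.45 (Retn) to 5.11 (Adipoq). On arrays of lower Dbp, rho with Dbp was 0.56 for Lipe, -0.39 for Adipoq, -0.3 for Lep, -0.11 for Retn and -0.05 for Pparg. A list mean is thus not read as an amount of cells. Of 10 marker lists, those whose mean had a rho of at least 0.4 in size with a member over the 24 arrays are given, a limit set after the values were seen. Tfrc had 0.48 with macrophage, 0.46 with erythroid and 0.42 with adipocyte markers. Klf9 had -0.55 with macrophage, -0.53 with adipocyte, 0.47 with endothelial, 0.43 with islet and -0.42 with erythroid markers. Usp2 had -0.53 with the T cell list, of which 1 gene of 6 was measured, -0.52 with adipocyte and 0.41 with endothelial markers. Its rho with the first principal component was -0.63.

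Klf13 had 0.69 with endothelial markers, -0.56 with the T cell gene and -0.43 with adipocyte markers. The endothelial genes measured were dim as well, with mean log2 signals of 4.90 (Cdh5) to 5.07 (Pecam1). Coq10b had -0.45 with the T cell gene, -0.44 with adipocyte and 0.40 with stellate markers. Tsc22d3 had -0.41 with the T cell gene, and Cirbp had only the islet value given above. Cdkn1a and Fkbp5 had none of that size.

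**Figure D2:**
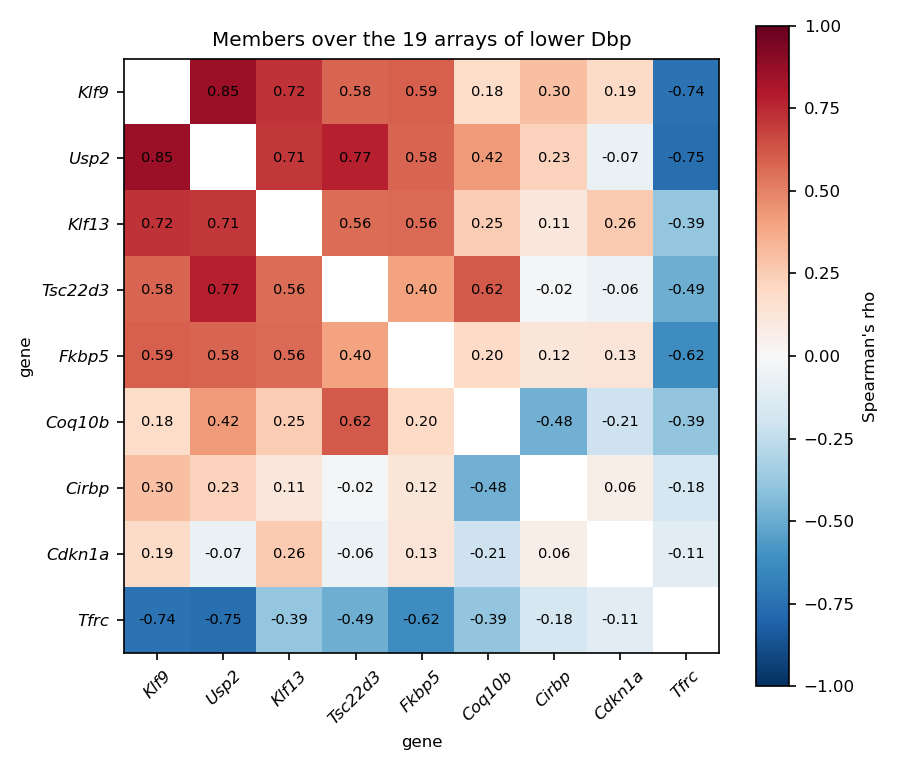
Squares give Spearman's rho between member pairs over the 19 arrays of lower Dbp, from -1 (blue) to 1 (red). Klf9, Usp2, Klf13, Tsc22d3 and Fkbp5 form a block of positive values with 0.85 at its highest, and Tfrc is negative with every other member. Over the 24 arrays, rho with the first principal component was -0.72 for Klf13, -0.63 for Usp2 and -0.48 for Klf9. It was -0.42 for Tsc22d3 and 0.00174 for Fkbp5. The 3 arrays far out on that component are among the 19, and its part in the block was not tested.

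The genes most like each member over the 24 arrays, high-Dbp arrays included, were chosen as the 2 of highest rho among non-members. Klf13 had the closest partners, Tmem131 (0.92) and Prr15l (0.90). Fkbp5 had Tnfrsf21 (0.86) and Pex11a (0.81), and Usp2 had Fchsd2 (0.85) and Klhl24 (0.85). Cirbp had Extl1 (0.82) and Tbcel (0.82), Klf9 had Zmym5 (0.81) and Stag2 (0.81), and Tfrc had Tmem97 (0.80) and Slc11a2, an iron transporter (0.78). Tsc22d3 had Ggnbp2 (0.78) and Pcgf5 (0.76), Coq10b had Tex30 (0.77) and Pmm2 (0.75), and Cdkn1a had Imp4 (0.77) beside Hspb1. For Klf13 the likeness was 0.95 and 0.94 when deviations from group means were used.

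Spread within groups is given as a description, since several members were chosen for following Dbp, which itself lay at the 99.99th percentile of kept probes. The within-group SD, pooled over the 6 groups, was 1.05 log2 units for Fkbp5, 0.73 for Cdkn1a and 0.68 for Usp2, against a median of 0.25 over all kept probes. These lay at the 99.7th, 98.97th and 98.7th percentiles of kept probes. Coq10b was the least variable, at the 69.9th percentile, and the share of its variance between groups was 51.3%, against a median of 18.8% over all kept probes.

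**Figure D3:**
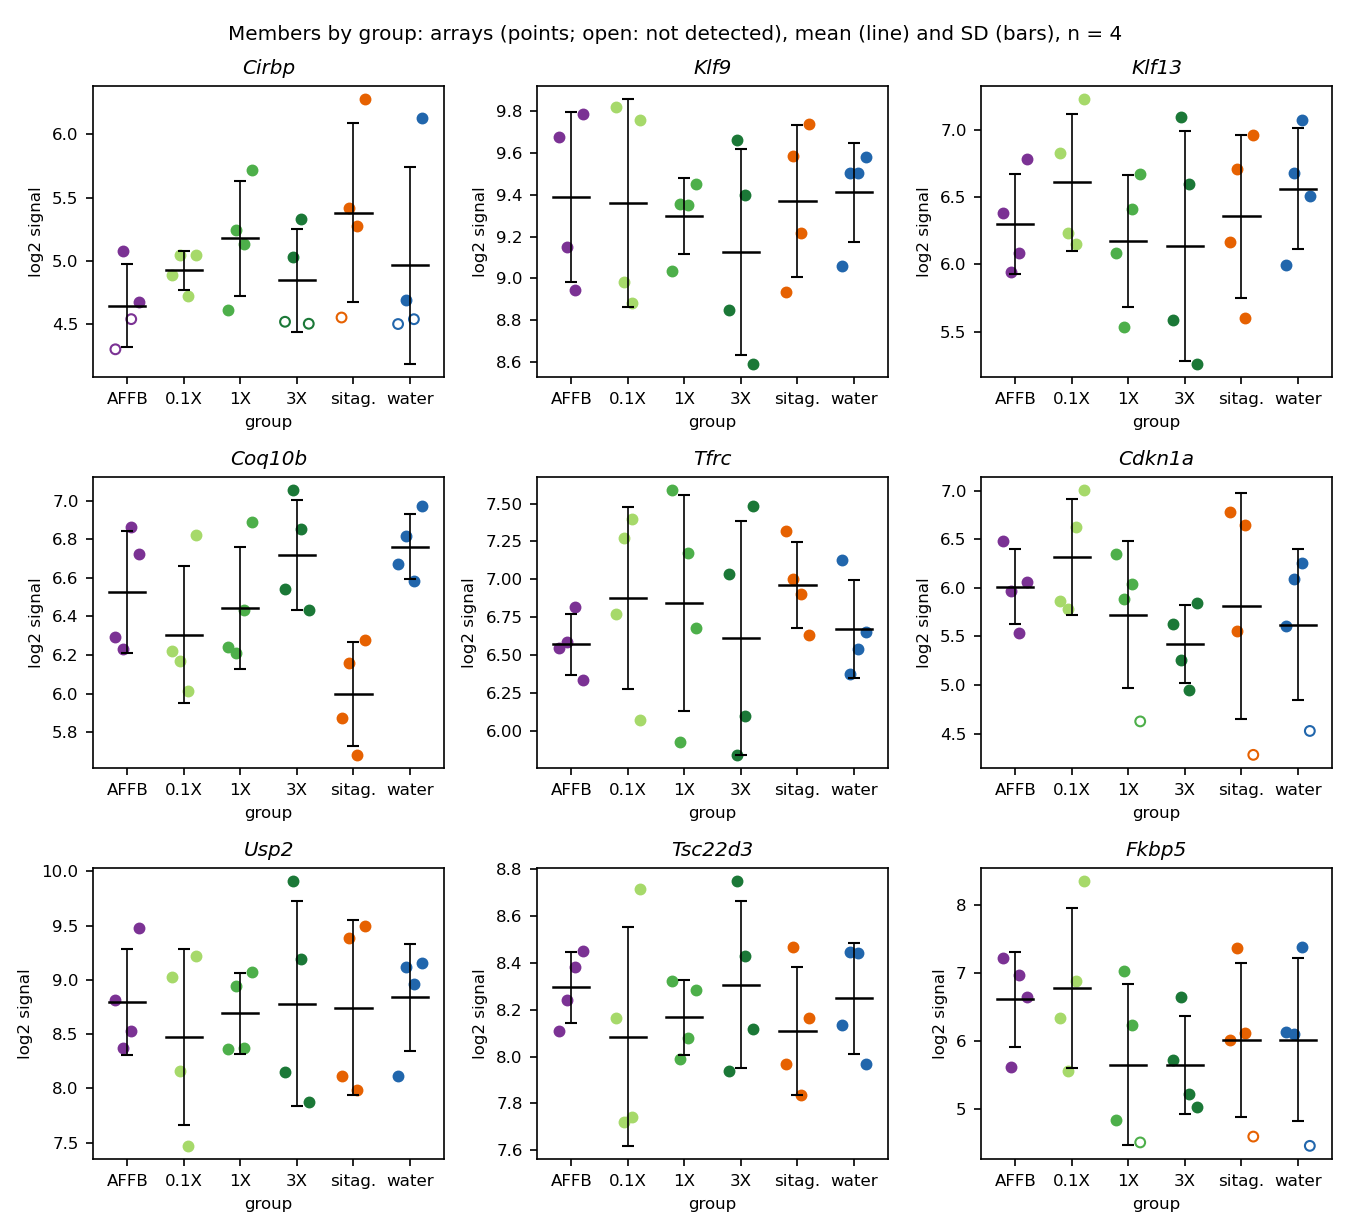
Points are log2 signals of the 4 arrays of each group (open where not detected), lines are group means and bars are SD, with treated groups left of water. Each treated group overlaps water for every gene, except that the 4 sitagliptin arrays lie below the 4 water arrays for Coq10b.

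Each treatment was then compared with water, which asks whether the drink changed the members. None of the 17 member probes passed an adjusted p of 0.05 in any comparison by limma. For AFFB this was 0 of 17, where 0% of all kept probes passed, and at an unadjusted p under 0.05 again 0 of 17, where 5.03% did. For PAE 0.1X, 0 passed (0% of all) and 1 was under the unadjusted threshold (3.78%). In PAE 1X the counts were 0 (0.00652%) and 0 (6.5%). In PAE 3X they were 0 (0.0457%) and 0 (5.03%). For sitagliptin, 0 passed (0%) and 1 was under the unadjusted threshold (2.74%). For the linear dose trend over water, 0.1X, 1X and 3X these were 0 (0.157%) and 0 (6.88%), and for the F test over the 5 treatments 0 (0.104%) and 1 (4.31%).

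Coq10b was the member in each of those 3 single cases. It had log2 signals of 5.88, 6.16, 5.68 and 6.28 on the sitagliptin arrays, against 6.67, 6.82, 6.59 and 6.97 on the water arrays. Every sitagliptin array lay below every water array, which held for 0.953% of all kept probes. The difference was -0.76 (SE 0.20, 95% interval -1.17 to -0.36), with an unadjusted p of 0.000697 and an adjusted p of 1.00 by limma. It was -0.79 without the 5 high-Dbp arrays, -0.66 without the 3 arrays far out on the first component and -0.72 with Dbp as a covariate, where the adjusted p was 0.425.

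The second Coq10b probe, which read 5.52, 5.36, 4.39 and 5.71 on sitagliptin arrays and 5.02, 5.88, 5.31 and 6.31 on water arrays, overlapped between the groups. Its difference was -0.39 (SE 0.38). For PAE 0.1X the lead probe read 6.22, 6.17, 6.01 and 6.82, with a difference of -0.46 (SE 0.20) from water and an adjusted p of 1.00 by limma. Its F test gave an unadjusted p of 0.00734 and an adjusted p of 0.702.

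One further probe did not overlap, the dim second probe of Tsc22d3 in AFFB. It read 4.57, 4.32, 4.49 and 4.70 on AFFB arrays, against 4.73, 4.73, 4.72 and 4.73 on water arrays, a pattern that 1.92% of all kept probes had. The difference was -0.21 (SE 0.18, adjusted p 0.919 by limma). The bright Tsc22d3 probe differed by 0.05 (SE 0.20), and both probes had a rho of 0.24 with each other.

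**Figure D4:**
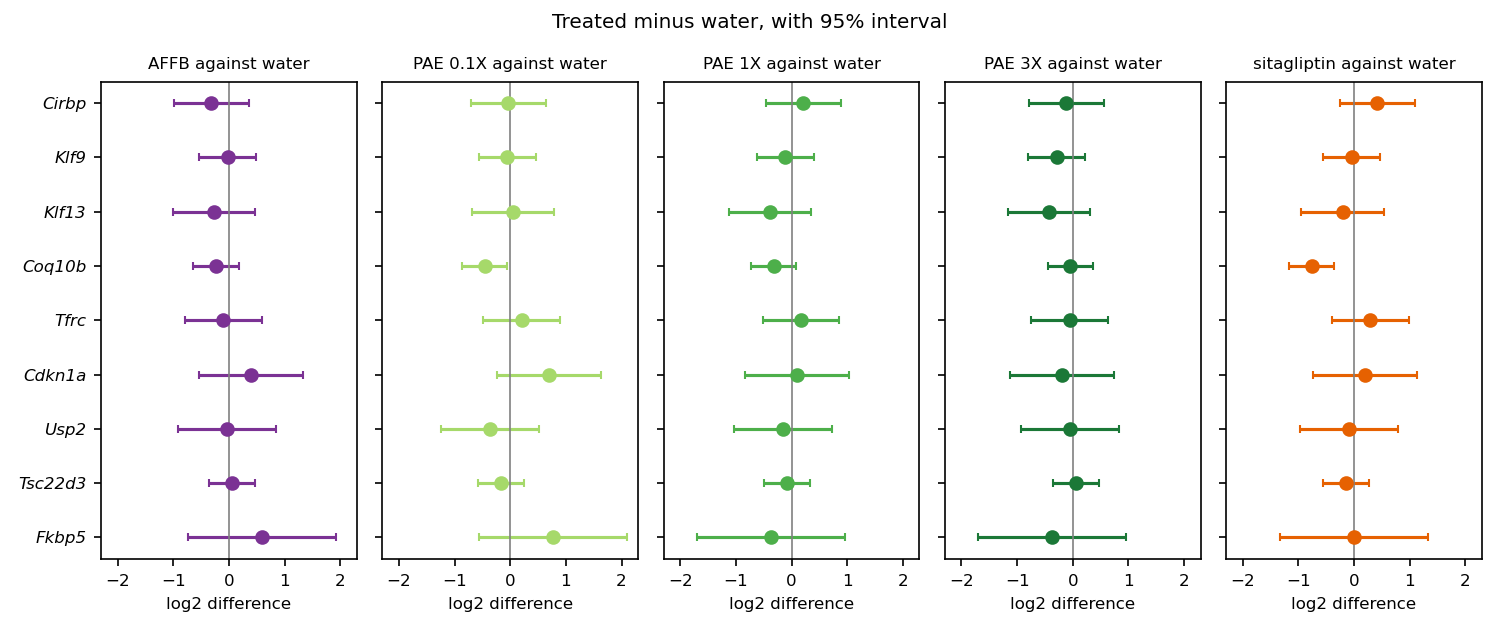
Points are log2 differences, treated minus water, for the lead probe of each member, with bars for the 95% interval of the limma fit, in a panel for each treatment. Every interval includes 0 except those of Coq10b in PAE 0.1X and sitagliptin, and the Fkbp5 intervals are the widest.

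For the other members, the 95% interval of every difference from water included 0. Fkbp5 differed by 0.76 (95% interval -0.56 to 2.09) in PAE 0.1X and 0.59 (-0.74 to 1.92) in AFFB. Fkbp5 values ran from 5.56 to 8.36 on PAE 0.1X arrays and from 4.46 to 7.39 on water arrays. Cdkn1a differed by 0.70 (-0.24 to 1.63) in PAE 0.1X, where no array had high Dbp, against water, where 1 had. Cirbp differed by 0.41 (-0.26 to 1.09) in sitagliptin, and Klf13 by -0.43 (-1.17 to 0.31) in PAE 3X. With Dbp as a covariate, Fkbp5 differed by 0.59 (SE 0.66) in PAE 0.1X and 0.44 (SE 0.65) in AFFB. In that fit Cdkn1a differed by 0.21 (SE 0.28), Cirbp by 0.51 (SE 0.20) and Klf13 by -0.51 (SE 0.29). The Cirbp value had an unadjusted p of 0.0209 and an adjusted p of 0.999 by limma. The part of Dbp in these differences was not tested.

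Signs were mixed. Of the 9 genes, 3 were higher and 6 lower than water in AFFB, as in sitagliptin and PAE 1X; 4 were higher in PAE 0.1X and 1 in PAE 3X. Medians over the 9 ran from -0.12 in PAE 3X to -0.04 in PAE 0.1X, beside medians of 0.01 and -0.00443 over all kept probes. By group mean, neighbouring groups overlapped at all 5 steps for each of the 9 genes. The widest span of means was 1.14 log2 units for Fkbp5 and the narrowest 0.22 for Tsc22d3. The dose trend per step was -0.17 (SE 0.11) for Klf13 and -0.22 (SE 0.20) for Fkbp5.

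Genes of the pathways around the members, from lists, gave 0 passing in either direction in the 5 comparisons. Core clock had 13 of 19 genes measured, with list medians from -0.19 in PAE 0.1X to 0.24 in PAE 3X. Besides Dbp, which defined the high-Dbp arrays, 4 of the other 12 (Nr1d1, Nr1d2, Tef and Ciart) lay on all 5 of them above all 19, as did 0.352% of all kept probes. Clock, the activator, lay below all 19 on 4 of the 5. Cry2, a repressor, had the lowest F test p of that list, 0.0282, and an adjusted p of 1.00. It differed from water by -0.12 in AFFB and by 0.32 to 0.48 in the other treatments.

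Glucocorticoid receptor targets had 15 of 16 genes measured and medians from -0.16 in sitagliptin to 0.13 in PAE 3X. Angptl4, an inhibitor of lipoprotein lipase, had an F test p of 8.18e-05 and an adjusted p of 0.0656, with differences of 0.98 in AFFB and 2.01 in PAE 0.1X. Neither group had an array of high Dbp. Angptl4 lay below all 19 on 3 of the 5 high-Dbp arrays and had a rho of -0.00175 with Dbp over the 19, and the part of Dbp in its differences was not tested. P53 targets had 11 of 14 measured and medians from -0.11 in AFFB to 0.04 in sitagliptin, with Plk3 at an F test p of 0.0388 (adjusted 1.00).

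Iron handling genes had 11 of 13 measured and medians from -0.04 in PAE 1X to 0.08 in sitagliptin. Trf, which encodes transferrin, the ligand of Tfrc, differed from water by -0.51 to -1.01 in the 5 comparisons, with an F test p of 0.0426 (adjusted 1.00). Heat shock genes had 8 of 13 measured and medians from -0.34 in sitagliptin to 0.32 in PAE 0.1X. Coenzyme Q synthesis had 8 of 11 measured and medians from -0.08 in PAE 0.1X to 0.05 in AFFB. Kruppel-like factors had 8 of 15 measured and medians from -0.19 in AFFB to 0.01 in sitagliptin, and Klf2 had an F test p of 0.00896 (adjusted 0.772).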

How the data were processed

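RNA of frozen mouse pancreas was biotin-labelled and read on single-colour bead arrays from Illumina (labels' protocols). The deposited non-normalized table gives each probe and array a mean bead signal, which is a linear intensity, and a detection p-value. The deposited log2 values, made with R 3.1.2 and limma 3.22.1 per the submitters' processing notes, differed from those computed here by 0.00194 at the 99th percentile. Here limma 3.58.1 (R 4.3.3) corrected background and applied quantile normalization through neqc, offset 16. A single fit of 6 group means over all 24 arrays (lmFit, eBayes) gave two-sided tests, adjusted by Benjamini-Hochberg over 15328 probes. Array number limits the precision.

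Members, gene lists and tests were chosen with earlier results of these data known. The described probe of a member is its detected probe of highest mean. Named non-members are the 2 of highest Spearman rho for each member and, from each list, genes of smallest F test p. Genes picked after their values were seen are Hspa8, Hsph1, Nr1d1, Nr1d2, Tef, Ciart and Clock. The p53 motif was added after the other motif counts were seen. No genome positions are given for probes, whose build no source used here gives. Alternatives changed the background correction, normalization, filter, variance model, covariates and arrays, and added a replicate block. The fit was also tested on simulated data.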

Additional observations from a re-analysis of the deposited data

Results flagged for a closer look

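Of the 54 sets of 4 arrays (9 members in 6 groups), 2 had an array far from the rest, by a rule that chance meets in about 1 in 20 groups. Cirbp was 6.12 on water replicate 4, against 4.50 to 4.69 on the other water arrays, a gap of 0.88 of the group's range. Water replicate 4 is also the water array of high Dbp. Klf9 was 9.06 on water replicate 1, against 9.50 to 9.58 on the other water arrays, a gap of 0.85 of the range. The cause of either was not tested.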

How the results depend on the processing

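No member probe passed in any comparison under any of the 35 to 37 alternatives run for each of the 54 member results, and the smallest adjusted p of a member was 0.151, for Coq10b in the F test under median scaling. In 36 of the 54 the sign of an uncalled difference turned under some alternative, while the Coq10b difference between sitagliptin and water kept its sign in 37 of 37 (-0.86 to -0.41). Without the 5 high-Dbp arrays the Klf13 dose trend was -0.41 per step (adjusted p 0.194 by limma), against -0.17 with them. That fit kept only replicates 1 and 4 of PAE 3X, where Klf13 read 5.59 and 5.26. These lay at 12.73 and 19.03 on the first principal component, whose part in the trend was not tested. Over the whole array, probes passing numbered 7 for PAE 3X (1 to 15 leaving out an array, 0 to 26 otherwise), 1 for PAE 1X (0 to 8 in both), 24 for the trend (2 to 28, and 4 to 85, the most under median scaling) and 16 for the F test (12 to 21, and 1 to 35). AFFB and PAE 0.1X had 0 (0 to 1 leaving out an array) and sitagliptin 0 throughout. With the replicate block, 0 member probes passed, and whole-array counts were 0, 0, 4, 9 and 0 for AFFB, PAE 0.1X, PAE 1X, PAE 3X and sitagliptin, 19 for the trend and 16 for the F test. Same-numbered arrays share only a number: their deviations from group means had a mean correlation of 0.0144 (-0.55 to 0.63), and 7 of 24 arrays were most like one of their own number. The count of members with a rho above 0 with Dbp was 7 of 9, and 6 to 7 under the alternatives, with Cirbp turning below 0 without PAE 1X replicate 2 or sitagliptin replicate 2. Since several members were picked for following clock genes, nothing is read from how steady this count was. The same count over all 24 arrays, added after seeing the data, is not given, since the arrays form separate clusters. Values close to background, as for Cirbp, are compressed and limit what small differences can show.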

Other observations

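The labels give each array a number besides its replicate number, and do not say what it stands for. The 5 arrays of high Dbp had numbers 33 (sitagliptin), 34 (PAE 1X), 55 and 70 (PAE 3X) and 69 (water). The part of that number in the values was not tested.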
